A study of Mus musculus with 6 samples.

Results

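DNA methylation was measured at 3 genes of the muscle MEF2 pathway, the transcription factor genes Mef2a and Mef2d and the repressor gene Hdac5, in quadriceps muscle of trained and untrained mice. The members are all rows of the deposited table whose region is keyed to a RefSeq transcript of one of these genes. They make up 3 of 10755 regions and 116 of 268725 cytosine positions, 69 in Mef2a, 15 in Mef2d and 32 in Hdac5. The study compared 3 exercised with 3 sedentary samples of C57BL/6 mice, a common inbred strain, and the labels name no genetic alteration and no age. The exercised mice had 4 weeks of training on a motorized treadmill, and their quadriceps DNA was isolated 3 hours after the final bout. The sedentary controls gave the same tissue without this training. The labels do not tell whether samples of a group come from different animals. The p-values therefore describe the spread among these 6 samples, which may be technical.

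MEF2 proteins are MADS-box transcription factors that bind A/T-rich sites near genes of muscle contraction and metabolism. Class IIa histone deacetylases, of which Hdac5 encodes one, bind MEF2 and repress its target genes. Calcium- and energy-sensing kinases phosphorylate these deacetylases during muscle activity, 14-3-3 proteins then hold them in the cytoplasm, and MEF2 is released from repression.

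In reduced representation bisulfite sequencing (RRBS), DNA is cut with a restriction enzyme and treated with bisulfite, so that unmethylated cytosines are read as T. The methylation level of a position is the percentage of its reads that were methylated, and differences are given in percentage points as exercised minus sedentary. The level of a region pools the reads of its positions, and a second summary gives each position equal weight. Coverage summed over all positions ran from 9153526 in sedentary sample 3 to 18656340 in sedentary sample 2. Every listed position had at least 10 reads in every sample. Summed over the positions of a region, coverage per sample was 2422 to 4894 in Mef2a, 292 to 979 in Mef2d and 801 to 2122 in Hdac5. In such sums, as in a region's reads below, a read counts once at each position it covers. The lowest sum came from sedentary sample 3 in each of the 3 regions.

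None of the 3 regions passed the threshold, an adjusted p under 0.05 in the quasi-likelihood test of edgeR. The same holds across the table, where 0 of 10021 tested regions (0%) were called, 237 (2.37%) had an unadjusted p under 0.05, and limma called 0 as well with 283 regions under an unadjusted 0.05. Mef2d was 1 of the 237. At the level of single positions edgeR called 0 of 253960 (0%), with 8424 (3.32%) under an unadjusted 0.05. Of the 109 member positions that could be tested, 2 (1.83%) had an unadjusted p under 0.05, and the lowest adjusted p was 0.919. The other 7 were fully methylated or fully unmethylated in all 6 samples and could not be tested.

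Most cytosines at the 3 genes were unmethylated in muscle. The mean level over the 6 samples was under 5% at 82 of the 116 positions, while 12 positions were at 90% or more, 10 of them in Mef2a. Under 10% were 49 of the 69 positions in Mef2a, 12 of the 15 in Mef2d and 27 of the 32 in Hdac5. Of all positions listed, 69% were under 10%. Averaged over the 6 samples, the region level was 21.0% in Mef2a, 18.6% in Mef2d and 12.5% in Hdac5. The median of all tested regions was 22.0%. Regions with a lower level than Hdac5 made up 5.46% of those tested, against 31.6% for Mef2d and 45.3% for Mef2a. Every sample's pooled Hdac5 level was below every sample's pooled Mef2a level, whereas the pooled Mef2d levels overlapped both. These ranks and orders hold for pooled levels. At equal weight per position Hdac5 and Mef2d were nearly equal. Hdac5 was then at 11.3% in exercised and 9.74% in sedentary samples, Mef2d at 11.3% and 9.61%, and Mef2a at 19.5% and 19.6%.

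**Figure D1:**
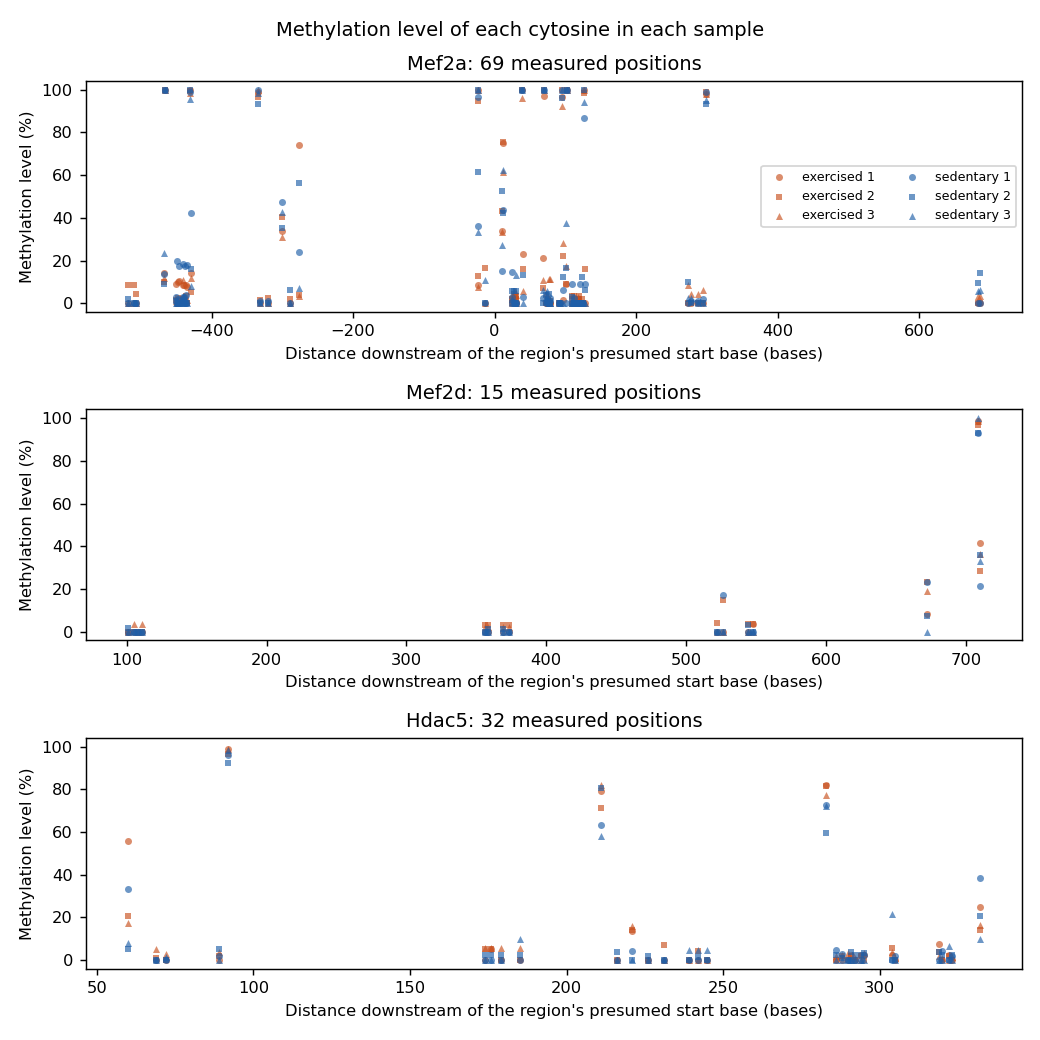
Methylation level in percent of every measured cytosine of Mef2a (69 positions), Mef2d (15) and Hdac5 (32), plotted against distance in bases downstream of the presumed start base of the region. Each symbol is 1 sample, orange for exercised and blue for sedentary. Clusters of positions near 0% are interrupted by single positions at higher levels, and the 2 groups lie on top of each other at most positions.

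Mef2a, whose protein is a MEF2 factor present in adult muscle fibres, was measured in the region at chr7:74516745-74519744 (mm9), keyed to NM_001033713. The authors' placement of regions relative to genes was not given in the sources used here. The spacing of the measured positions was therefore compared with the 300-base promoter window of RefSeq (build GRCm38.p6), which runs from 250 bases before to 50 bases from the first transcribed base on. With that base placed at base 1000 of the region, all 13 positions in the window fell on CpG dinucleotides. Of the 690 placements with at least 10 positions in the window, the next best put 68.8% on CpG. No coordinates were converted between builds. Distances below count from the first transcribed base, which is 0, in the direction of the gene.

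The Mef2a start site is shown first because the measured cytosines and a MEF2 site lie side by side there. The stretch is chr7:67372829-67372948 (GRCm38.p6, minus strand, RefSeq), with the bases that match the MEF2 consensus in capitals.
Mef2a start site: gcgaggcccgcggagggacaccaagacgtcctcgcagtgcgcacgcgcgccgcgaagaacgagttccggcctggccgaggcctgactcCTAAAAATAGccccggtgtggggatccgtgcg
The matching bases run from -2 to 7, across the start of transcription, and hold no CpG themselves. The next line shows the inner part again, chr7:67372829-67372894, with the 4-base sites CCGG in capitals, since these carry the highest levels.
Mef2a inner part: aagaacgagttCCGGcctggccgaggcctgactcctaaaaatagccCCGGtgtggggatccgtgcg
The MEF2 match lies between the 2 CCGG sites of this stretch.

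The 6 measured cytosines in CCGG sites of the Mef2a window had mean levels of 10.2%, 99.3%, 60.0%, 34.3%, 98.5% and 26.7%. The 7 other measured CpG cytosines of the window were at 0.538% to 4.63%. Methylation at the Mef2a start was thus read at CCGG sites and hardly at the CpGs between them. At the upstream site, the cytosine on 1 strand (position 74517767, distance -23) was at 98.5% and its partner on the other strand (position 74517768, distance -24) at 26.7%. At the downstream site the partners stood at 60.0% (position 74517732, distance 12) and 34.3% (position 74517733, distance 11).

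The same contrast held across the table. In the 2401 of 4293 windows (55.9%) with at least 5 positions whose positions all matched a CpG under the same placement, 8669 cytosines in CCGG had a median level of 68.2%, and 26390 other CpG cytosines had a median of 1.45%. Levels of 90% or more were seen at 38.4% of the former and 1.45% of the latter. As background, CCGG is the usual cutting site of RRBS, and the ends of the fragments are filled in with added cytosines before sequencing. Whether filled-in ends contribute to the levels at CCGG sites was not tested.

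**Figure D2:**
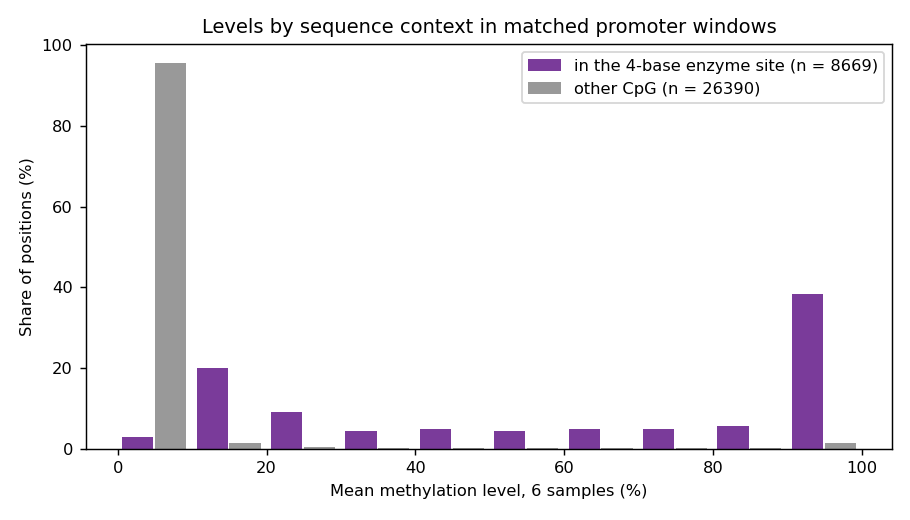
Share of positions in percent (vertical axis) by mean methylation level over the 6 samples in percent (horizontal axis) in all promoter windows that matched. Purple bars are the 8669 cytosines in the 4-base site of the restriction enzyme and grey bars the 26390 other CpG cytosines. The grey bars pile up under 10%, while 38.4% of the purple positions are at 90% or more.

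Positions that stand out from an unmethylated neighbourhood are here called stand-alone, defined as a mean level of at least 10% where the median of the other positions within 100 bases is under 10%. Of 83230 listed positions with a level of 10% or more, 66643 (80.1%) met this definition, and 90.2% of the stand-alone positions in matched windows lay in CCGG. Mef2a held 19, Hdac5 held 5 and Mef2d held 0. In Mef2a, 9 pairs of adjacent positions, the 2 strands of a CpG, included a stand-alone position. Their levels differed between strands by a median of 85.7 points, with a range of 25.8 to 91.5 points. In the 17 other Mef2a pairs the strands differed by a median of 1.58 points and at most 3.797. Over the whole table every directly adjacent pair was counted, including pairs across 2 neighbouring CpGs. The median gap there was 72.4 points in 24110 pairs with a stand-alone position and 1.18 points in 76243 pairs without.

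The pooled Mef2a region level was nearly equal in the groups. In the order of their numbers, as in all such lists, the samples had 22.0%, 20.7% and 20.5% in the exercised samples and 22.4%, 19.8% and 20.9% in the sedentary samples. The highest and the lowest value were both sedentary, so the groups overlapped. The means were 21.1% ± 0.815 (SD, n = 3) and 21.0% ± 1.34 (SD, n = 3), a difference of 0.0523 points (SE 0.905; exact two-sided permutation p = 1.0 over the 10 splits, of which the smallest possible p is 0.1; edgeR adjusted p = 0.9998). At equal weight per position the difference was -0.154 points (SE 0.533). Its sign also turned without exercised sample 1 (-0.412 points) and without sedentary sample 2 (-0.571 points) or 3 (-0.0307 points).

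Within Mef2a the stand-alone and the remaining positions were also close between groups. The 19 stand-alone positions, pooled, were at 59.5%, 59.2% and 56.9% in exercised and 58.0%, 63.2% and 60.3% in sedentary samples, giving a difference of -1.97 points (SE 1.70, exact permutation p = 0.4). The 50 other positions were at 5.17%, 5.14% and 6.53% against 5.80%, 3.58% and 4.66%, a difference of 0.934 points (SE 0.787, exact permutation p = 0.4). Both sets overlapped between groups. The other positions include position 74518078, at 97.8% on average. The 49 positions under 10%, pooled, differed by 0.145 points (SE 0.595). Of the 63 tested Mef2a positions, 34 had a higher and 29 a lower mean in exercised samples.

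The position with the lowest edgeR p in Mef2a was the partly methylated strand of the upstream CCGG site, position 74517768. Its levels were 8.57%, 12.8% and 7.69% in exercised and 36.4%, 61.3% and 33.3% in sedentary samples. All exercised values were below all sedentary values, a difference of -34.0 points (SE 8.998). The read counts behind them were small, with 3 of 35, 5 of 39 and 1 of 13 reads methylated in exercised samples and 4 of 11, 19 of 31 and 4 of 12 in sedentary samples. The Wilson 95% interval, which covers counting error only, was 1.37% to 33.3% for exercised sample 3 and 13.8% to 60.9% for sedentary sample 3. The unadjusted edgeR p was 0.0322 and the adjusted p 0.919, so the position did not pass the threshold. The authors' deposited table gives it an unadjusted p of 0.0195 and places it in its strongly hypomethylated class.

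The largest difference in the other direction was at the downstream CCGG site of the same stretch, position 74517732. It read 75.0%, 75.5% and 61.5% in exercised and 43.5%, 42.2% and 62.5% in sedentary samples, giving a difference of 21.3 points (SE 7.997, edgeR adjusted p = 0.919). Sedentary sample 3 lay among the exercised values there, so the groups overlapped. Next followed position 74517647 (11.1 points, SE 8.78) and position 74517675 (10.03 points, SE 4.56). The levels at position 74517675 were 21.0%, 6.96% and 11.1% in exercised and 2.50%, 0% and 6.45% in sedentary samples. These groups did not overlap, and the edgeR adjusted p was 0.919.

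Further lower means in exercised samples were seen at position 74518173 (-11.7 points, SE 10.7), position 74518045 (-6.59 points, SE 4.54) and position 74518193 (-6.10 points, SE 6.54), none of them past the threshold. The last rested on 1 library, with 19.6% in sedentary sample 1 and at most 1.27% in the other 5 samples. The most variable position of the 3 genes, position 74518020, read 74.2%, 3.77% and 3.45% in exercised and 24.1%, 56.2% and 7.14% in sedentary samples. Its highest and its lowest value were both exercised, with all sedentary values between them. At the other end, position 74517642 was fully methylated and position 74517619 fully unmethylated in all 6 samples. The SD over the 6 samples had a median of 7.18 points at the 24 stand-alone positions of the 3 genes and 2.20 points at the 92 others.

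**Figure D3:**
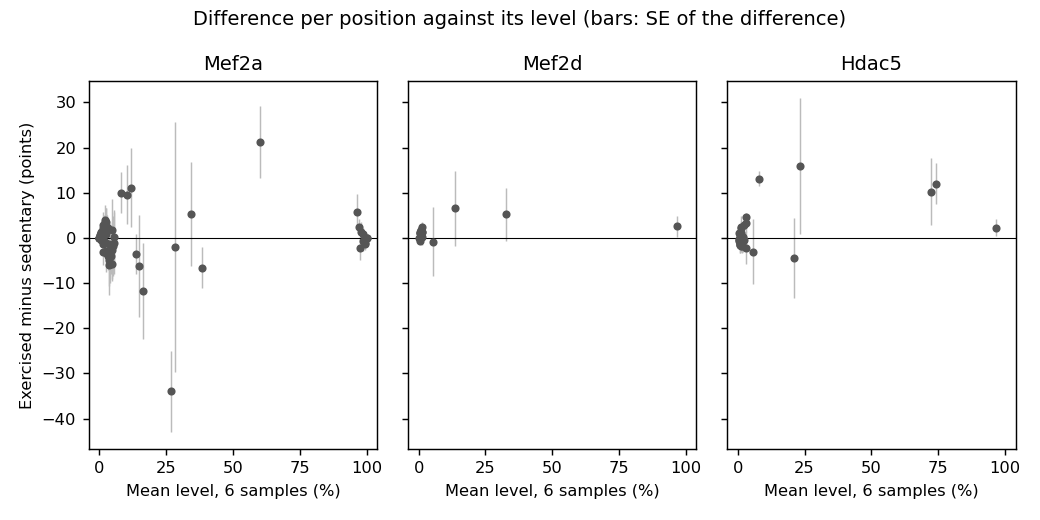
Difference between groups in percentage points (vertical axis, exercised minus sedentary, bars give the SE of the difference) against the mean level over 6 samples in percent (horizontal axis), with 1 point per cytosine. Most points near 0% and 100% sit close to the zero line. Exceptions at a mean level of 8.0% are position 102091265 in Hdac5 (13.1 points) and position 74517675 in Mef2a (10.03 points). The widest differences, -34.0 and 21.3 points in Mef2a, belong to intermediate levels.

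Mef2d, which encodes another MEF2 factor of differentiating and adult muscle, was measured at 15 positions in the region chr3:87944317-87947316 (mm9), keyed to NM_133665. Under the placement assumed for a plus-strand gene, with the first transcribed base at base 2001 of the region, its positions would lie 101 to 710 bases downstream, outside the RefSeq promoter window. That placement was not checked against sequence for this gene. The window of Mef2d held 24 CpGs, 0 CCGG sites and no MEF2 consensus match.

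The pooled Mef2d level was 24.4%, 26.0% and 14.8% in the exercised samples and 13.8%, 12.2% and 20.5% in the sedentary samples. The groups overlapped, since exercised sample 3 lay below sedentary sample 3. The means were 21.7% ± 6.03 (SD, n = 3) and 15.5% ± 4.45 (SD, n = 3). Their difference of 6.23 points (SE 4.32) was larger than that of 98.9% of tested regions, with an exact permutation p of 0.2, an unadjusted edgeR p of 0.0401 and an adjusted p of 0.9998. Leaving out exercised sample 2 gave 4.12 points and leaving out exercised sample 3 gave 9.68 points. For comparison, the difference was larger than that of 87.1% of regions in Hdac5 and of 40.4% in Mef2a. These ranks count the sign, so every region with a negative difference ranks below all of these genes, however large its difference.

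The Mef2d level followed how the reads were spread over its positions. The 3 positions at 10% or more took 46.4%, 43.7% and 24.5% of the region's reads in exercised and 22.7%, 23.8% and 42.8% in sedentary samples. The 3 samples with the larger share, exercised 1 and 2 and sedentary 3, were the 3 with the highest pooled level. Of the 6.23 points, 2.23 were left when every position kept its mean share of reads in all samples, and the other 4.00 came with the shares. At equal weight per position the levels were 10.1%, 12.5% and 11.3% in exercised and 10.3%, 9.61% and 8.89% in sedentary samples. That difference was 1.68 points (SE 0.802, exact permutation p = 0.2), and the groups overlapped at exercised sample 1 and sedentary sample 1 alone.

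**Figure D4:**
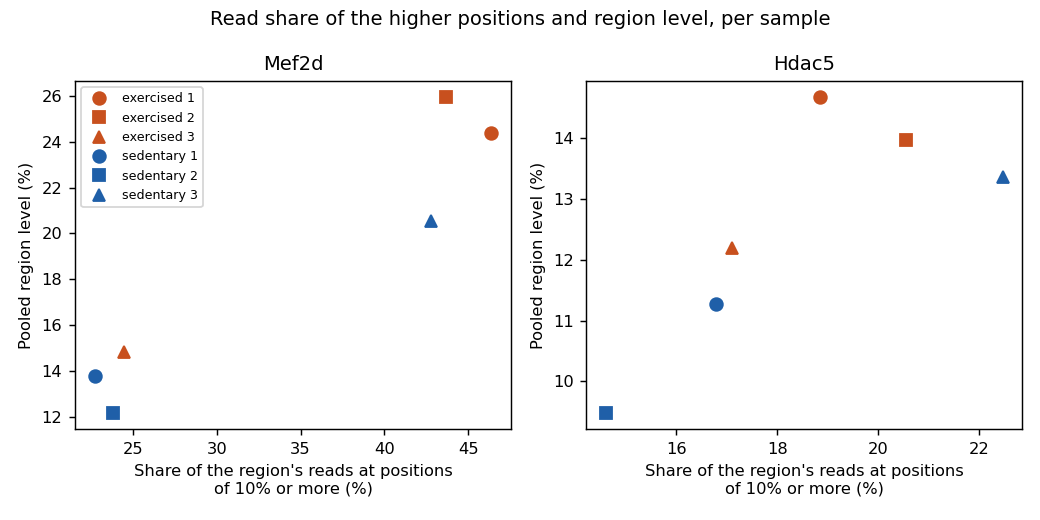
Pooled region level in percent (vertical axis) against the share of the region's reads that fell on its positions of 10% or more, in percent (horizontal axis), for Mef2d and Hdac5, with 1 symbol per sample. In Mef2d the 3 samples with shares of 42.8% to 46.4% have levels of 20.5% to 26.0%, and the 3 with shares of 22.7% to 24.5% have levels of 12.2% to 14.8%. Axes do not start at 0.

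Among the 3 higher Mef2d positions, adjacent cytosines at the far end of the covered stretch again differed by strand. Position 87947026 was at 98.4%, 96.6% and 98.4% in exercised and 92.9%, 93.0% and 100% in sedentary samples (difference 2.52 points, SE 2.43). Its neighbour, position 87947027, was at 41.5%, 28.6% and 36.4% against 21.4%, 35.9% and 33.3% (5.25 points, SE 5.82). The pair differed by 63.7 points in its mean level. The third, position 87946989, ranged from 8.20% to 23.3% in exercised and from 0% to 23.4% in sedentary samples (6.52 points, SE 8.23). Each of the 3 overlapped between groups, and none passed the threshold.

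Taken at equal weight, the 3 higher Mef2d positions averaged 49.4%, 49.5% and 51.2% in exercised and 45.9%, 45.4% and 44.4% in sedentary samples, giving a difference of 4.76 points (SE 0.743). The groups did not overlap, which gave the smallest exact permutation p the design allows, 0.1. This split of the Mef2d positions by level was chosen after the data were seen. How often comparable sets of positions separate was not tested. Among whole tested regions at equal weight, 9.21% had groups that did not overlap. With their reads pooled, the same 3 positions differed by 3.21 points (SE 2.91) and overlapped. The 12 remaining positions, pooled, were at 0.299%, 3.93% and 1.37% in exercised and 1.26%, 0.670% and 0% in sedentary samples (1.22 points, SE 1.14, exact permutation p = 0.4). Of 14 tested positions, 12 had a higher and 2 a lower mean in exercised samples. The 2 lower ones were position 87946843 (-0.809 points, SE 7.58) and position 87946418 (-0.654 points, SE 0.654).

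Positions of a gene are not independent observations. Mef2d positions 87946673 and 87946690 were covered by 34, 33 and 47 and by 34, 32 and 46 reads in exercised samples 1 to 3, nearly the same counts at both. Their levels were alike as well, with 0%, 3.03% and 2.13% at the first, 0%, 3.12% and 2.17% at the second, and 0% in all sedentary samples at both. These were the 2 lowest edgeR p-values of Mef2d (unadjusted 0.167 and 0.168), followed by position 87946865 (0.180, 2.38 points, SE 1.19). Position 87946425 was fully unmethylated in all 6 samples.

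Hdac5, the class IIa deacetylase gene, was measured at 32 positions in the region chr11:102090487-102093486 (mm9), keyed to NM_010412. Under the placement assumed from Mef2a they would lie 60 to 332 bases downstream of the first transcribed base, outside the promoter window. Of 378 other placements that put at least 10 positions in the window, the best had 50% of 10 positions on CpG, so no placement was matched for this gene. The window is shown because it holds the same 10 bases as the Mef2a site, on the opposite strand. The stretch is chr11:102230143-102230262 (GRCm38.p6, minus strand, RefSeq), with the match in capitals.
Hdac5 start site: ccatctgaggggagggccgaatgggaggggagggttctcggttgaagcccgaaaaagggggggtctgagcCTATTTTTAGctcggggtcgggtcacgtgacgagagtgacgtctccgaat
The match covers bases -20 to -11. Under the assumed placement no measured cytosine lies in this window, so no methylation level is given beside the Hdac5 match.

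The 10 bases CTAAAAATAG, searched on both strands, occurred in 36 of 32851 mouse promoter windows of this length (0.11%), which belong to 33 of 27025 genes. The MEF2 consensus, which includes these 10 bases and is its own reverse complement, occurred in 1047 windows (3.19%). A match is a description of letters and was not tested for binding.

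The pooled Hdac5 level was 14.7%, 13.98% and 12.2% in the exercised samples and 11.3%, 9.47% and 13.4% in the sedentary samples. Sedentary sample 3 lay among the exercised values, so the groups overlapped. The means were 13.6% ± 1.28 (SD, n = 3) and 11.4% ± 1.94 (SD, n = 3), a difference of 2.25 points (SE 1.34, exact permutation p = 0.2, edgeR unadjusted p = 0.0617 and adjusted p = 0.9998). Without sedentary sample 2 it was 1.30 points, and at positions with at least 20 reads in every sample 1.41 points. None of the 3 pooled regions had groups that did not overlap, as 7.25% of tested regions did.

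At equal weight per position the Hdac5 groups did separate. The levels were 11.9%, 10.7% and 11.4% in exercised and 10.3%, 9.53% and 9.42% in sedentary samples. The difference was 1.58 points (SE 0.434) with an exact permutation p of 0.1, the smallest possible, and an adjusted p of 0.984 in limma. Of all tested regions, 9.21% had non-overlapping groups at equal weight. With every position at its mean share of reads the pooled difference was 1.77 of the 2.25 points.

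**Figure D5:**
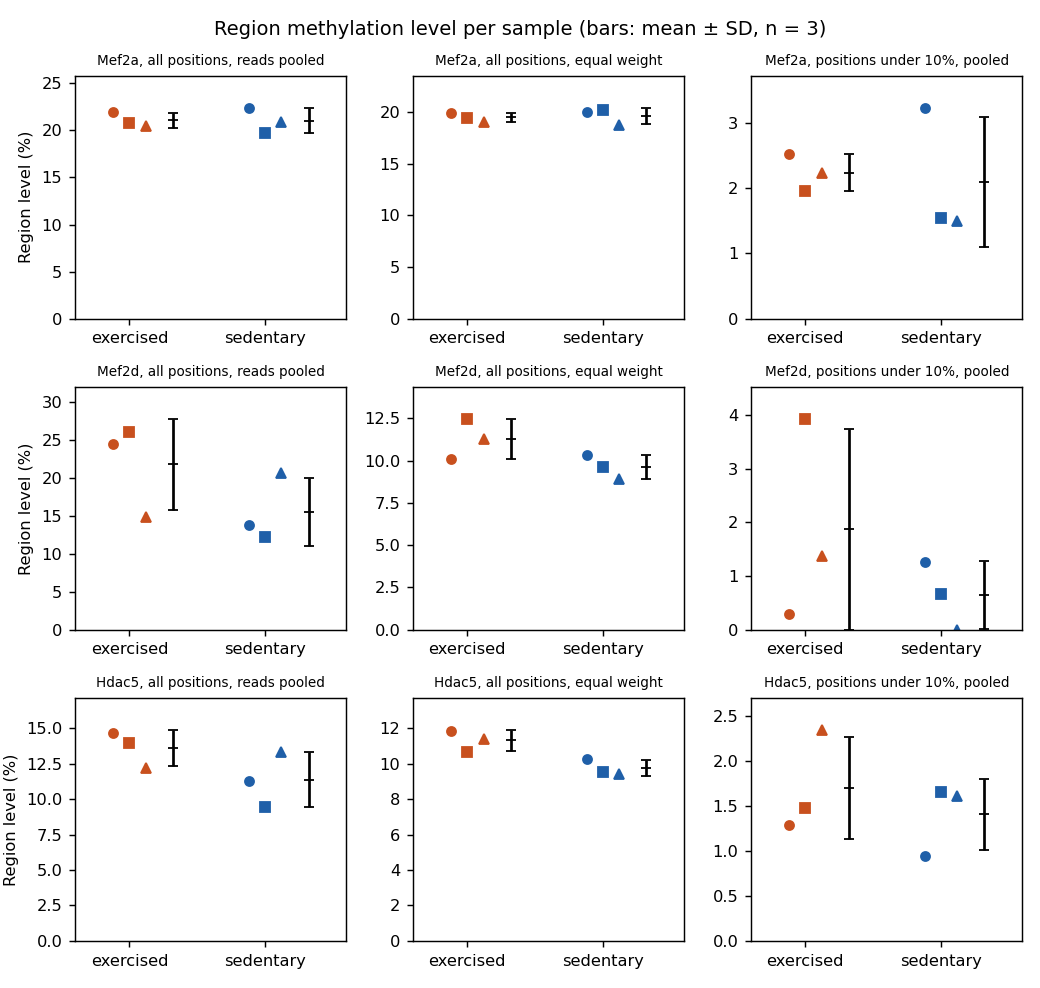
Region level in percent per sample for Mef2a, Mef2d and Hdac5 (rows), from all reads pooled, from all positions at equal weight, and from positions under 10% pooled (columns). Symbols are samples and bars give the mean ± SD of n = 3. Orange and blue symbols overlap in every panel except Hdac5 at equal weight, where exercised samples lie between 10.7% and 11.9% and sedentary samples between 9.42% and 10.3%.

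The 5 stand-alone positions of Hdac5 were set apart from its other positions. Pooled, they were at 72.4%, 62.3% and 59.9% in exercised and 62.5%, 55.2% and 53.9% in sedentary samples, giving a difference of 7.69 points (SE 4.65, exact permutation p = 0.3). The other 27 positions were at 1.28%, 1.47% and 2.34% against 0.945%, 1.66% and 1.61%, a difference of 0.296 points (SE 0.399, exact permutation p = 0.6). Both sets overlapped between groups. Whether fragment ends contribute to the stand-alone levels was not tested.

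Of the 5, position 102091203 was at 81.8%, 81.5% and 77.1% in exercised and 72.4%, 59.7% and 72.2% in sedentary samples. All exercised values were above all sedentary ones, a difference of 12.03 points (SE 4.46, edgeR adjusted p = 0.919). Position 102091275 overlapped, with 79.3%, 71.4% and 82.1% against 63.2%, 80.6% and 58.3%. Position 102091426 had the largest difference of the gene, 15.9 points (SE 15.1), from 55.7%, 20.9% and 17.6% against 33.3%, 5.26% and 7.94%. Sample 1 was the highest of its group in both groups there. Position 102091394 was the most methylated, at 96.8% on average (2.29 points, SE 1.88), and position 102091154 was lower in exercised samples by mean (-4.45 points, SE 8.91).

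The lowest edgeR p in Hdac5 was at position 102091265, which is not stand-alone. It read 13.6%, 14.3% and 15.8% in exercised and 4.35%, 0% and 0% in sedentary samples, from 3 of 22, 2 of 14, 3 of 19, 1 of 23, 0 of 52 and 0 of 14 reads. The groups did not overlap and differed by 13.1 points (SE 1.58, edgeR unadjusted p = 0.0451, adjusted p = 0.919). At these depths a count of 0 allows a level of up to 5.77% in sedentary sample 2 and up to 21.4% in sedentary sample 3, which reaches past all 3 exercised values. The Wilson 95% interval of exercised sample 2 was 4.01% to 39.9%. In the authors' deposited table this position has an unadjusted p of 0.00116 and the class hypermethylated.

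Of the 32 Hdac5 positions, 17 had a higher and 15 a lower mean in exercised samples. Further lower means were those of position 102091182 (-3.04 points, SE 7.21) and position 102091301 (-2.17 points, SE 3.597). The lower mean at position 102091182 rested on 1 library, sedentary sample 3, at 21.4% from 3 of 14 reads. Sedentary samples 1 and 2 were at 0% there, below all exercised values. The next lowest edgeR p-values after position 102091265 were those of position 102091417 (unadjusted 0.0967, 2.10 points, SE 1.67) and position 102091196 (0.175, 1.18 points, SE 1.18). The least methylated position was 102091260, at 0.321% on average. Over the 3 genes, groups did not overlap at 7 of the 116 positions, 6 with exercised samples higher and 1 with exercised samples lower. Of all listed positions, 3.79% had non-overlapping groups with exercised samples higher and 2.04% with exercised samples lower, so the members' counts are near this background. The authors' deposited table puts 5 of the 109 member positions with a p-value into a class other than insignificant, 3 in Mef2a, 2 in Hdac5 and 0 in Mef2d, against 3.13% of all positions. Beside the positions already described, these were Mef2a positions 74517626 (2.30 points in that table) and 74517715 (3.87 points) and Hdac5 position 102091310 (4.68 points). Each of these 3 differences rested on 1 methylated read per exercised sample, out of 17 to 56 reads. Sedentary samples had 0 methylated reads there, except 1 of 42 in sedentary sample 2 at position 102091310. The edgeR adjusted p was 0.919 at each of the 3.

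The samples are DNA of whole quadriceps. A different share of cell types and a different methylation within a cell type cannot be told apart in them.

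Other genes of the pathway were read from the same test of regions. Of 73 listed genes, 47 had a tested region, 53 regions in all. Of these 32 had a higher and 21 a lower mean in exercised samples, and none passed the threshold in edgeR. An unadjusted edgeR p under 0.05 was found in 2 of the 53, and in 237 (2.37%) of all 10021 tested regions. The median difference of the 53 was 0.361 points, against 0.390 points over all 10021 tested regions, of which 6117 were higher and 3904 lower. The other MEF2 genes, Mef2b and Mef2c, and the deacetylase genes Hdac4, Hdac9 and Hdac3 had no tested region and were not analysed here.

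Deacetylases and co-repressors had 2 regions with a higher and 4 with a lower mean (median -0.187 points). Ncor1, a co-repressor that brings in histone deacetylases, differed by -0.843 points (SE 1.64). Hdac7, the other class IIa gene with a tested region, differed by -0.149 points (SE 1.14). The groups overlapped in both.

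Kinases that act on class IIa deacetylases or MEF2 had 11 regions with a higher and 8 with a lower mean (median 0.836 points), and both regions under an unadjusted 0.05 were among them. Prkaa1, a catalytic subunit of the energy sensor AMPK, was at 15.3% ± 1.13 (SD, n = 3) in exercised and 13.2% ± 0.0714 (SD, n = 3) in sedentary samples, giving a difference of 2.10 points. A region of Mark2, a kinase named for its action on microtubule-associated proteins, was at 62.2% ± 2.79 (SD, n = 3) against 74.6% ± 2.30 (SD, n = 3). It differed by -12.4 points and held 5 positions. The groups did not overlap in either, and the edgeR adjusted p was 0.9998 for both. Of all tested regions, 7.25% had groups that did not overlap. In the other lists this was also so for a region of the co-repressor gene Sin3a (2.32 points, SE 0.790) and for Ywhab (1.80 points). The other Mark2 region, with 72 positions, overlapped between groups and differed by -1.05 points (SE 0.962).

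Calcineurin, the calcium-dependent phosphatase that also acts on MEF2, and its regulators had 9 regions with a higher and 4 with a lower mean (median 0.441 points). The ends of this list were a region of Nfatc1, a calcineurin-controlled transcription factor gene, at 3.47 points (SE 2.43), and Ppp3cc, a catalytic subunit gene, at -1.96 points (SE 0.753). The 14-3-3 genes had 3 and 4 such regions (median -0.122 points), from Ywhab at 1.80 points (SE 0.731) to a region of Ywhaz at -2.70 points (SE 1.75). Partners of MEF2 had 4 higher means and 0 lower ones, the largest in Vgll2, a muscle co-factor gene, at 4.51 points (SE 4.16). Muscle targets had 3 and 1, from Myom1, which encodes a protein of the sarcomeric M-band, at 5.80 points (SE 5.48) to Myoz1, which encodes a calcineurin-binding Z-disc protein, at -1.58 points (SE 7.22). Slc2a4, Ppargc1a, Myod1 and Myog were among the genes with no tested region.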

How the data were processed

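RRBS of quadriceps DNA was deposited by the authors as 1 table for all 6 samples, with the methylated fraction (0 to 1) and the coverage count of every cytosine position in each sample. Per position the table also holds the authors' own mean difference, unadjusted p-value and class. Recomputing the p-value from the fractions with a test of equal variances matched the deposited one within 5.0e-10, and the mean difference matched within 3.3e-10. The submitters' processing notes list Bismark 0.7.7 and Bowtie 0.12.9, Trim Galore 0.2.5 with cutadapt 1.0, and the build mm9, with roles and settings not given in the sources used here. Fraction times coverage was whole within 0.00236 of a read, so read counts were recovered. Regions were 3000 bp long, and 10655 of 10755 transcripts were given symbols through a RefSeq table (GRCm38.p6, names only). Promoter windows are those of RefSeq for that build. No annotation of mm9 was used, so exons and introns are not stated.

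R 4.3.3 and edgeR 4.0.16 ran a quasi-likelihood test on methylated beside unmethylated counts (a term per sample and a group term) on all regions of at least 3 positions and on all positions, with Benjamini-Hochberg adjustment over all of them and a threshold of 0.05. The alternatives were limma 3.58.1 on log2((methylated + 2)/(unmethylated + 2)) or on mean fractions, a replicate block, each sample left out, coverage of at least 20, positions above the 99.9th percentile of coverage left out, merged strands, no stand-alone positions and at least 5 positions. Using only positions under 10% was an alternative chosen after seeing the data. The fits were tested on simulated data. Python 3.11.15, numpy 2.4.6, pandas 2.3.3 and scipy 1.17.1 did the rest. Since reads may share a molecule, Wilson intervals at 95% and limits from 3 reads cover counting error only.

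The members and lists were chosen with earlier results of these data known. Named were, per gene, the 3 positions with the largest difference in each direction, the 3 with the lowest edgeR p, and the highest and lowest level. Of each list, the regions with the largest difference in each direction were named, of which 1 is not reported here. Other positions and genes were chosen after their values were seen.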

Additional observations from a re-analysis of the deposited data

How the results depend on the processing

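No alternative brought Mef2a, Mef2d or Hdac5 past the threshold, with adjusted p-values (edgeR or limma) of 0.804 to 1.0. The Mef2a difference of 0.0523 points changed sign without exercised sample 1 (-0.412), without sedentary sample 2 (-0.571), without sedentary sample 3 (-0.0307) and as the mean over positions (-0.154). Leaving out 1 sample at a time it ranged from -0.571 to 0.759 points. The other 2 kept their sign in all alternatives, several of which could not change it. A replicate block, merged strands, limma on log2 ratios and at least 5 positions leave these differences as they are. The coverage maximum also left them unchanged, and Mef2d has no stand-alone positions to leave out. When 1 sample was left out, the difference ran from 4.12 to 9.68 points for Mef2d and from 1.30 to 3.25 points for Hdac5. As the mean over positions Mef2d and Hdac5 were at 1.68 and 1.58 points. Without stand-alone positions Hdac5 stood at 0.296 and Mef2a at 0.934 points. That Mef2a value still holds position 74518078, at 97.8% on average. With only positions under 10% the Mef2a difference was 0.145 points. For Mef2d no value at a coverage of at least 20 could be had. Called regions numbered 0 under every alternative. Called positions numbered 0 under all but merged strands, which gave 1, in Grb10 (edgeR adjusted p = 0.00615, -9.71 points), named after its value was seen. Deviations of region levels from their group means were not alike in samples with the same replicate number (correlations of 0.019, -0.219 and -0.111). Between different numbers these correlations ran from -0.101 (exercised sample 3 with sedentary sample 1) to 0.221 (exercised sample 3 with sedentary sample 2). They cannot tell whether samples were paired, since deviations from a mean of 3 samples are tied to each other. With a replicate block the edgeR p-values were 0.953 for Mef2a (difference 0.0523 points), 0.0568 for Mef2d (6.23 points) and 0.0911 for Hdac5 (2.25 points), and 1851 positions in place of 8424 had an unadjusted p under 0.05. Counts of 10 to 170 reads stand behind each value of a member position, which limits its precision.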

Other observations

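The 10 bases CTAAAAATAG, taken from the Mef2a window and searched on both strands, were found in the windows of Mef2a and Hdac5 and not in that of Mef2d. Besides Mef2a and Hdac5, 5 genes whose window holds them had a tested region, and none passed the threshold in edgeR. Jun, an immediate early transcription factor gene, was at 23.4% ± 3.08 (SD, n = 3) in exercised and 21.5% ± 2.06 (SD, n = 3) in sedentary samples, and was the only gene of the pathway lists with the motif, out of 56 with a window. Capn3, a muscle-specific calpain gene, was nearly fully methylated, at 92.9% ± 0.334 and 91.4% ± 3.596 (SD, n = 3 each). The 2 regions of Speg, a striated-muscle kinase gene, differed by -1.44 points (SE 2.22) and -2.62 points (SE 3.24). Gpr146 and Ankrd40 differed by 2.21 points (SE 1.98) and 0.0468 points (SE 1.33). The groups overlapped in all of them.

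Among 7395 regions with at least 10 positions and a mean coverage of at least 20, the pooled levels most like those of Mef2a over the 6 samples were those of Cse1l (Pearson r = 0.996) and Sco2 (0.991). For Mef2d they were Tmem178 (0.993) and Fezf2 (0.986), and for Hdac5 Xpnpep1 (0.996) and Agpat5 (0.992). These values are the highest of all regions compared, over 6 samples that share libraries and depth.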
